A study of Mus musculus with 18 samples.

Results

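The genes described here are 40 mouse genes of cell-matrix adhesion, chosen by a list of names: 22 integrin and 10 laminin chain genes, 7 genes of adhesive glycoproteins and Cd44. They are 40 of 22911 genes that the array's probes name. The list was made with earlier results of these data known. Counts of these genes beside shares of all features are therefore descriptions and not independent tests. Each gene stands on its brightest probe, and 40 of 40 passed the filter on dim probes, 33 of them with a signal well above background on all 18 arrays. The other 7, Itga2, Itga5, Itga11, Itgb8, Lama1, Lamc3 and Tnc, were above background on fewer arrays.

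Integrins are cell surface receptors made of an alpha and a beta chain, and the pairing sets the ligand. Some alpha chains bind collagen or laminin, some bind the RGD motif of fibronectin, vitronectin, osteopontin and tenascin, and the chains that pair with Itgb2 are carried by leukocytes. Laminins are trimers of an alpha, a beta and a gamma chain that build basement membranes, including the one below the endometrial epithelium. In the endometrium these molecules are known for roles in implantation and in the attachment of shed tissue to the peritoneum.

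The samples were total RNA of female mouse tissue at estrus, with 6 groups of 3 arrays, and each array carried RNA pooled from 3 animals, so a group covers 9 animals. Lesions came from 2 mm endometrial fragments of ERBOE mice, in which the labels state that oestrogen receptor beta is overexpressed, or of PRCre/+ control mice, each placed in an intact wild-type C57BL/6J host of 8 weeks and taken 4 weeks later. Host endometrium, called eutopic, was that of 8-week ERBOE or PRCre/+ mice that carried a wild-type implant for 4 weeks, and uterus from ERBOE or PRCre/+ mice of 12 weeks without surgery. PRCre mice carry the Cre recombinase at the progesterone receptor locus, which limits its action to cells that express that receptor, and lesions can also hold cells of the wild-type host. Lesions and eutopic endometrium of a genotype therefore came from different animals. For ERBOE lesions and ERBOE eutopic endometrium 1 label states an absence of endometriosis, against the titles, and the titles were followed.

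A level is given here as the log2 signal of a probe minus the log2 of the 75th percentile signal of its array, so that a level of 0 lies at that percentile. Levels of different probes are not compared, and a difference is the first named group minus the second on this log2 scale. The 75th percentile signal was 237 on PRCre uterus array 1 and 451 to 740.0 on the other 17 arrays, and the share of probes above background ran from 55.3% to 74.2%. On PRCre uterus array 1, 14 of 39 members measured on all PRCre uterus arrays read more than 1 log2 unit below both other arrays of the group, and 5 of 39 read more than 1 unit above both. The same counts over all features were not made. Counts and differences that hold the PRCre uterus group are given with and without it. PRCre lesion array 2 also stands apart for leukocyte genes, as described with those chains. Esr2, which encodes oestrogen receptor beta, differed between ERBOE and PRCre by -0.25 ± 0.20 in lesions, 0.01 ± 0.20 in eutopic endometrium and -0.24 ± 0.20 in uterus (limma SE, n = 3 arrays each). None of these differences passed, and the position of this probe relative to the transgene is unknown here.

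Lesions were first set against eutopic endometrium as the mean of the differences in ERBOE and in PRCre, which asks how adhesion genes differ between implanted and host endometrium. Of the 40 genes, 3 rose in lesions and 0 fell at an adjusted p under 0.05 (limma, Benjamini-Hochberg over 33179 features), where 0.97% of all features were called higher and 0.31% lower. The 3 were Tnc, which encodes the matricellular protein tenascin-C, Spp1, which encodes osteopontin, and Itgb2, the shared beta chain of leukocyte integrins. At an unadjusted p under 0.05, 10 genes were higher and 0 lower, against 5.77% and 6.72% of all features. The median difference over the 40 was 0.28 and that over all features -0.09, and 30 of 40 lay above 0, against 39.1% of all features.

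**Figure D1:**
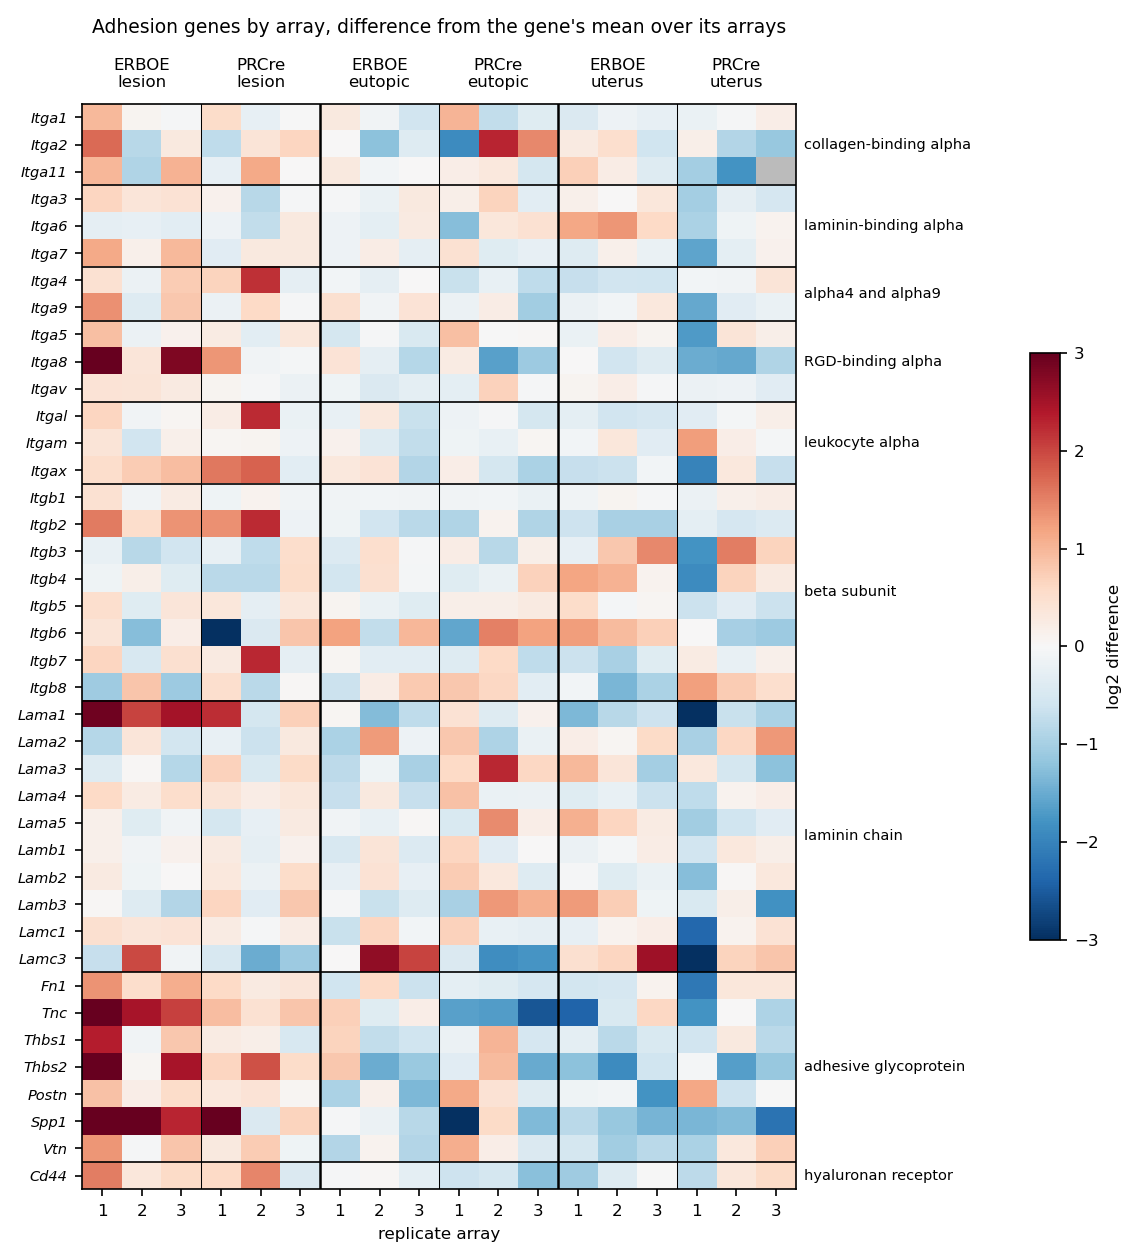
Level of the 40 genes on each of the 18 arrays, as the log2 difference from the gene's own mean (red above, blue below, colours end at 3 log2 units either way, grey not measured). Columns are the 3 arrays of each group and rows are ordered by role. Tnc and Spp1 are red on the ERBOE lesion arrays, Itgb2, Itgal, Itgax, Itga4 and Itgb7 are highest on PRCre lesion array 2, and PRCre uterus array 1 is blue for many rows.

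The promoters of Tnc and Spp1 are shown because both genes were called higher in lesions in the same comparison. Each is a 300-base window around 1 of 2 annotated starts, written 5′ to 3′ in the direction of the gene from RefSeq sequence of build GRCm38.p6. For Tnc it is chr4:64046887-64047186 on the minus strand and for Spp1 chr5:104434861-104435160 on the plus strand. Capitals mark matches, on either strand, to the TATA box written as TATANA, the PU.1 motif written as GAGGAA and the RUNX motif written as TGTGGT.
Tnc: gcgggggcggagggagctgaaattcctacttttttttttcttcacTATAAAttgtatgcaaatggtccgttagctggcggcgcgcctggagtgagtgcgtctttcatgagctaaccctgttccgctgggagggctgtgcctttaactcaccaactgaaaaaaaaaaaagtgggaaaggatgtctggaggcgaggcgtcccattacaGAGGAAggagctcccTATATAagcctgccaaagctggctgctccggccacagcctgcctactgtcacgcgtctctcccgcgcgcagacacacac
Spp1: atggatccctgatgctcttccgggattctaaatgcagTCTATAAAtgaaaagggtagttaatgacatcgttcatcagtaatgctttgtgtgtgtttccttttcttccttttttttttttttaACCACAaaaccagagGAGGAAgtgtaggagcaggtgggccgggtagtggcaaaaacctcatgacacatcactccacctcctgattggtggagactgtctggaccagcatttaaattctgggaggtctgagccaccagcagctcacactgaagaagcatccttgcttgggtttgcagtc
In the Tnc window a TATANA match on both strands lay at positions -29 to -24 from the start, next to a GAGGAA match at -44 to -39, and a second TATANA match lay at -205 to -200. In the Spp1 window GAGGAA lay at -113 to -108, close to a TGTGGT match on the other strand at -128 to -123, and a pair of overlapping TATANA matches, 1 on each strand, covered -213 to -206. Both strands of 32851 windows were searched. TATANA was found in 24.7% of all windows, GAGGAA in 28.3% and TGTGGT in 16.8%. The windows of the adhesion genes numbered 33, from 27 of the 40 genes and in part overlapping, and 7, 18 and 4 of them held these motifs. The palindromic oestrogen response element was in 0 of the 33, against 0.0700% of all windows, its half-site GGTCA in 7, against 40.5%, and the AP-1 motif TGANTCA in 3, against 7.81%. Such a match is a description of the letters and not of a bound site.

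Among the adhesive glycoproteins, Tnc read -0.21, -1.25 and -1.66 in ERBOE lesions and -2.79, -3.26 and -2.89 in PRCre lesions. It read -3.0, -4.09 and -3.52 in ERBOE eutopic endometrium and -5.35, -5.41 and -6.28 in PRCre eutopic endometrium. Lesions lay above eutopic endometrium without overlap within each genotype, and 5 of 6 lesion arrays lay above all 6 eutopic arrays. The difference was 2.60 ± 0.46 (adjusted p = 0.0111, limma), and with slide as a block the call was lost (2.30 ± 0.52, adjusted p = 0.0599, limma). Tnc was not well above background on any PRCre eutopic array, so as a fold on this scale it was at least 4.45-fold higher in lesions (group means -2.01 and -4.61). With normexp background, which adds an offset of 50 to each signal, the log2 difference was 1.31 ± 0.19 (adjusted p = 0.00175, limma), below that bound. A second Tnc probe, fitted as a feature of its own, gave 2.73 ± 0.54 (adjusted p = 0.0224, limma). In uterus Tnc read -6.12, -4.17 and -3.10 in ERBOE and -5.51, -3.70 and -4.65 in PRCre, with 3 of these 6 arrays above background.

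Spp1, a secreted phosphoprotein that binds RGD integrins and Cd44, read 5.47, 6.03 and 4.74 in ERBOE lesions and 6.64, 2.01 and 3.13 in PRCre lesions. It read 2.42, 2.28 and 1.63 in ERBOE eutopic endometrium and -0.78, 3.02 and 1.12 in PRCre eutopic endometrium. The ERBOE groups did not overlap, whereas PRCre lesion array 2 lay below PRCre eutopic array 2. The difference was 3.05 ± 0.70, or 8.30-fold, with an adjusted p of 0.0480 (limma) that lay near the threshold. That call was lost on leaving out 1 array in 15 of 18 cases, with adjusted p between 0.0218 and 0.124, and was kept without PRCre lesion array 2, PRCre lesion array 3 or PRCre eutopic array 2.

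Thbs2, a matricellular thrombospondin, read 2.37, -1.20 and 1.21 in ERBOE lesions and -0.61, 0.65 and -0.71 in PRCre lesions. In eutopic endometrium it read -0.44, -2.75 and -2.37 in ERBOE and -1.59, -0.31 and -2.76 in PRCre. The groups overlapped and the difference of 1.99 ± 0.61 did not pass (adjusted p = 0.163, limma). Fn1, the fibronectin gene, gave 1.01 (adjusted p = 0.266, limma), with 6.59, 5.78 and 6.33 in ERBOE lesions and 5.85, 5.51 and 5.59 in PRCre lesions. Its eutopic levels were 4.63, 5.83 and 4.59 in ERBOE and 4.95, 4.87 and 4.73 in PRCre, so that the PRCre groups did not overlap and ERBOE eutopic array 2 lay within the ERBOE lesion range. Vtn (vitronectin), Postn (periostin) and Thbs1 (thrombospondin that activates latent TGF-beta) differed by 0.64, 0.56 and 0.55 and did not pass.

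**Figure D2:**
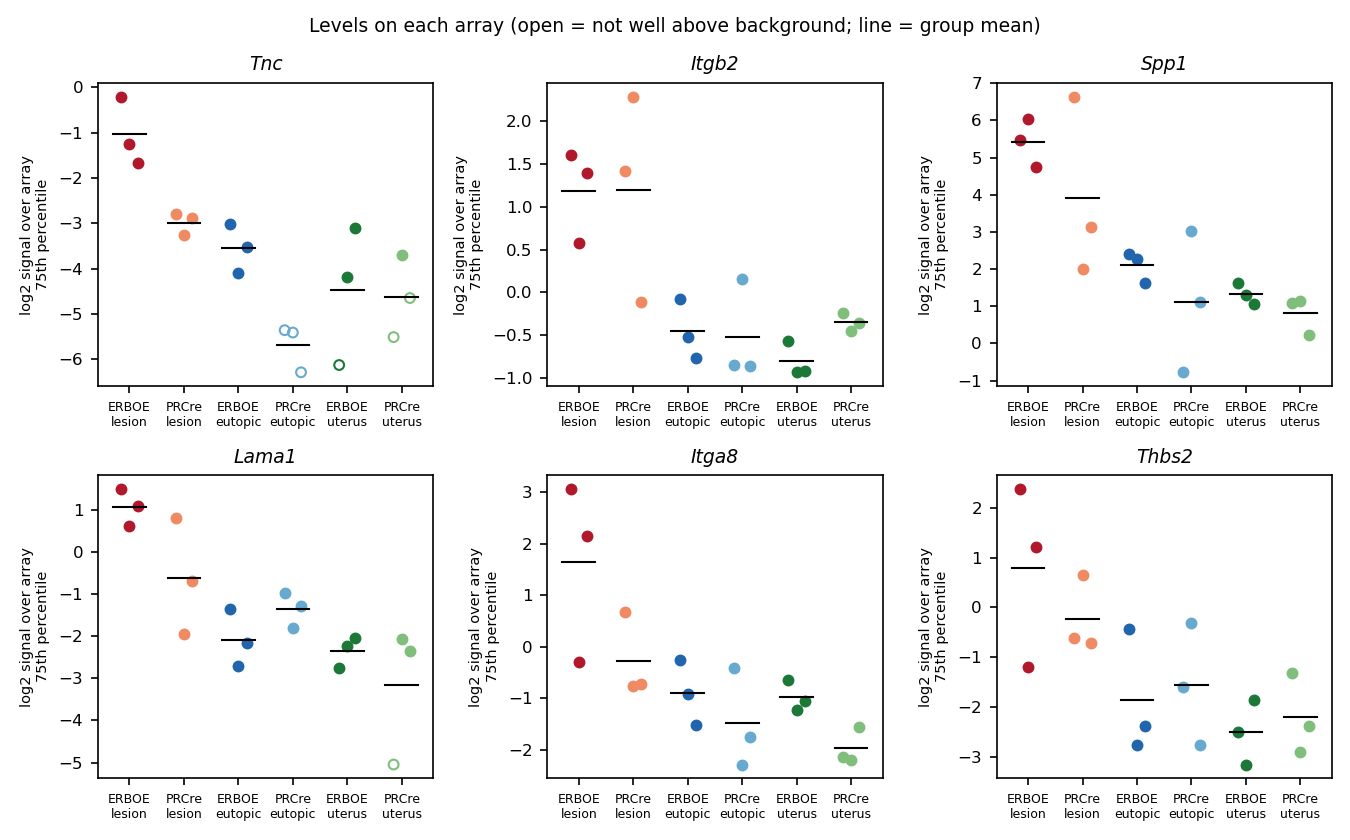
Level (log2 signal over the array's 75th percentile) of Tnc, Itgb2, Spp1, Lama1, Itga8 and Thbs2 on each array of the 6 groups, with group means as lines and open symbols where the probe was not well above background. Tnc lies higher in lesions than in eutopic endometrium of the same genotype on every array, and for Itgb2 and Spp1 5 of 6 lesion arrays lie above all eutopic arrays.

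Among the alpha chains, 0 of 14 passed. The largest difference was that of Itga8, the alpha chain of a receptor for nephronectin and other RGD ligands, at 1.87 ± 0.50 (adjusted p = 0.102, limma). It read 3.06, -0.30 and 2.15 in ERBOE lesions and 0.67, -0.76 and -0.72 in PRCre lesions, against -0.25, -0.92 and -1.52 in ERBOE and -0.41, -2.29 and -1.75 in PRCre eutopic endometrium. ERBOE lesion arrays 1 and 3 and PRCre lesion array 1 thus lay above all eutopic arrays, and the other lesion arrays within their range. Itga5, the fibronectin receptor chain, and Itgav, which pairs with several beta chains, differed by 0.21 and 0.23. The collagen-binding chains Itga1, Itga2 and Itga11 differed by 0.20 to 0.30 and the laminin-binding chains Itga3, Itga6 and Itga7 by -0.12 to 0.48. Itga9, a receptor chain for tenascin-C and osteopontin, differed by 0.40.

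Beta chains other than Itgb2 did not pass either. Itgb1, the partner of most alpha chains, had lesion levels of 4.32 to 4.90 and eutopic levels of 4.23 to 4.36, with a difference of 0.20 ± 0.13, and Itgb5 differed by 0.13. Itgb3, Itgb4 and Itgb8 differed by -0.28, -0.23 and -0.51. Itgb6, an epithelial chain that activates latent TGF-beta, had the lowest difference of the 40 at -1.02 ± 0.67 (adjusted p = 0.565, limma), and its lesion levels ran from -4.35 to -0.34.

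Of the 10 laminin chains 0 passed, and Lama1 had the largest difference. This alpha chain is typical of embryonic and some epithelial basement membranes. It read 1.5, 0.62 and 1.09 in ERBOE lesions and 0.80, -1.95 and -0.68 in PRCre lesions, against -1.36, -2.71 and -2.17 in ERBOE and -0.97, -1.80 and -1.27 in PRCre eutopic endometrium. The ERBOE groups did not overlap, while the PRCre groups did. The mean difference was 1.94 ± 0.52 (adjusted p = 0.0979, limma), and without PRCre uterus array 1, with a Lama1 level of -5.05 in a group that enters the shared spread only, the same difference passed (adjusted p = 0.0257, limma). Lama4, Lamc1, Lamb1 and Lamb2 lay between 0.04 and 0.48 and Lama2, Lama3, Lama5, Lamb3 and Lamc3 between -0.42 and -0.07.

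**Figure D3:**
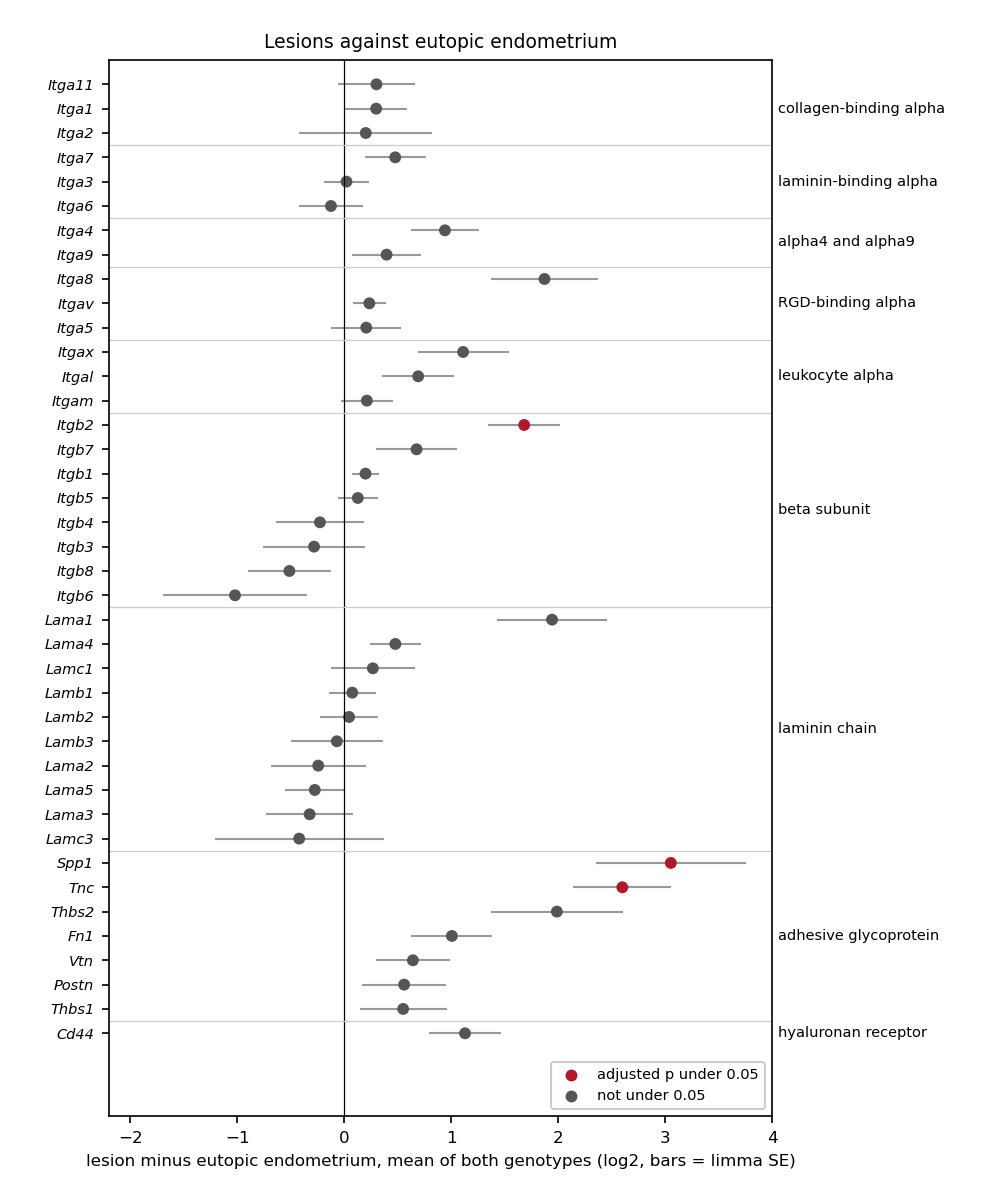
Difference of lesions minus eutopic endometrium, mean of both genotypes (log2, bars are limma SE), for the 40 genes grouped by role, with the 3 genes at an adjusted p under 0.05 in red. Spp1, Tnc and Itgb2 are the red points at 3.05, 2.60 and 1.68, and most laminin chains lie near 0.

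The chains carried by leukocytes are given together, and of these Itgb2 passed. It read 1.60, 0.58 and 1.39 in ERBOE lesions and 1.42, 2.29 and -0.11 in PRCre lesions, against -0.08, -0.52 and -0.77 in ERBOE and -0.85, 0.15 and -0.86 in PRCre eutopic endometrium. The ERBOE groups did not overlap, and PRCre lesion array 3 lay within the PRCre eutopic range. The difference was 1.68 ± 0.34, or 3.21-fold (adjusted p = 0.0245, limma). Of its alpha partners, Itgax (of dendritic cells and macrophages) differed by 1.11, Itgal (the lymphocyte chain) by 0.69 and Itgam (of neutrophils and macrophages) by 0.21, and 0 of 3 passed. Itga4 and Itgb7, which together form a lymphocyte homing receptor, differed by 0.94 and 0.68 and did not pass. Cd44, the hyaluronan receptor of many cell types, differed by 1.13 (adjusted p = 0.150, limma), and its groups did not overlap in either genotype.

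PRCre lesion array 2 had the highest level of all 18 arrays for 6 of the 40 genes, which were Itga4, Itga11, Itgal, Itgax, Itgb2 and Itgb7. The summed signal of 9 lymphocyte markers was 33.5 times the 75th percentile on that array and 6.89 to 16.2 on the other 17. Without it, the Itgb2 difference was 1.41 ± 0.30 (adjusted p = 0.0498, limma), and those of Itga4, Itgal, Itgax and Itgb7 were 0.61, 0.32, 0.92 and 0.30. Each of these differences was smaller than with that array. The Itgb2 call was lost on leaving out any 1 of 7 other arrays, which were PRCre lesion array 1, PRCre eutopic arrays 1 and 3, ERBOE lesion arrays 1 and 3 and ERBOE eutopic arrays 2 and 3. Its adjusted p ran from 0.00137 to 0.0797 over the 18 fits that each left out 1 array. ERBOE lesion array 1 had the highest level of all 18 arrays for 12 of the 40 genes. These were Itga5, Itga7, Itga8, Itga9, Itgb1, Lama1, Fn1, Tnc, Thbs1, Thbs2, Vtn and Cd44. Counts of the highest array were made over the 40 genes only, and whether these arrays stand apart over all features was not tested. The summed myeloid signal of ERBOE lesion array 1, at 310, was also the highest of all arrays. Of the myeloid markers, S100a8, S100a9 and Cd14 were highest on that array, at 5.43, 7.33 and 4.21. Adgre1, Csf1r, Cd68 and Lyz2 were instead highest on PRCre lesion array 2, at 4.73, 6.48, 3.98 and 4.68. Without ERBOE lesion array 1 the Tnc difference was 2.39 ± 0.47 (adjusted p = 0.0368, limma).

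**Figure D4:**
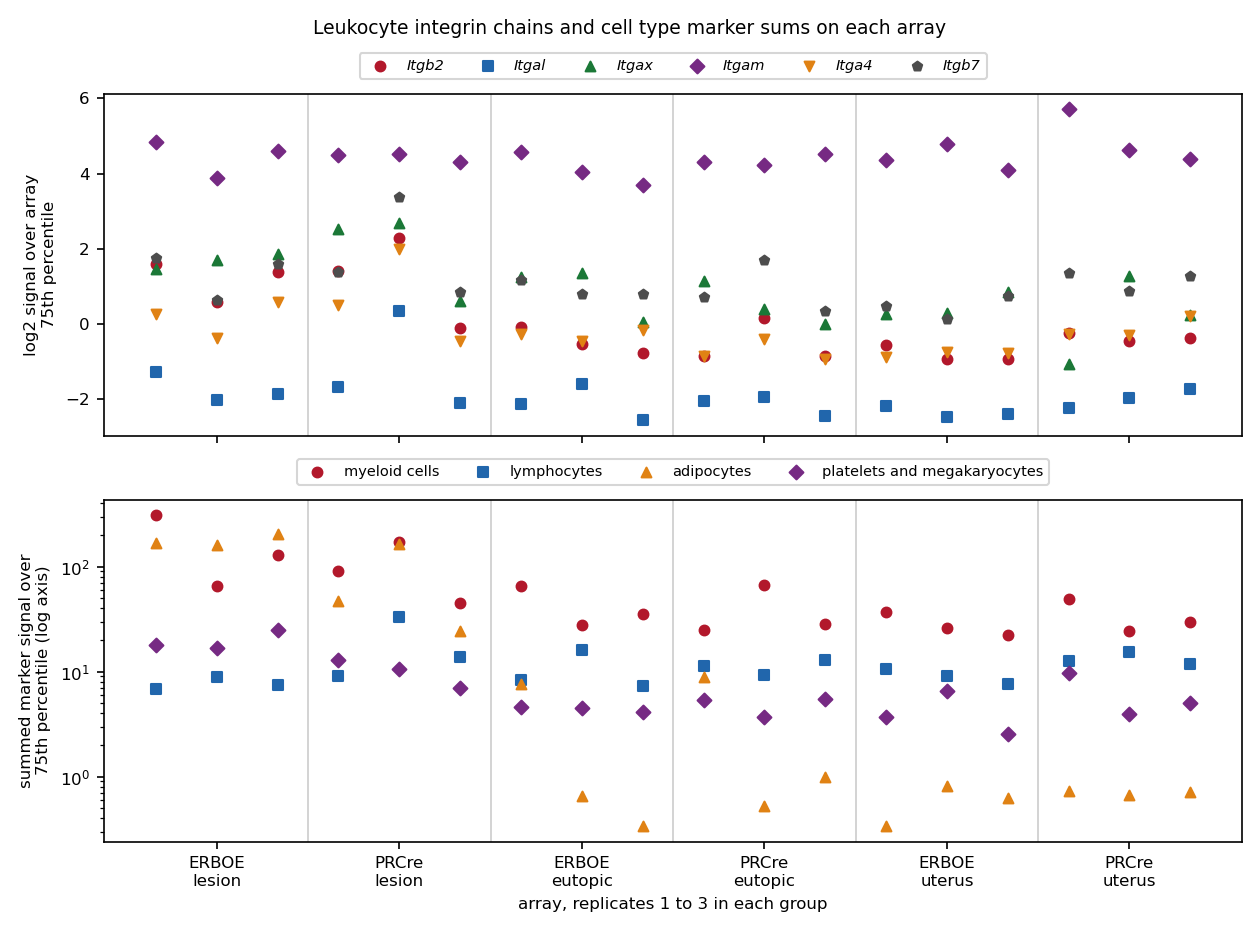
Top, levels of Itgb2, Itgal, Itgax, Itgam, Itga4 and Itgb7 on each array (log2 signal over the 75th percentile), to be read along each gene and not between genes. Bottom, summed linear signal of the myeloid, lymphocyte, adipocyte and platelet marker lists over the 75th percentile on a log axis, where adipocyte markers lie at 24.3 to 207 in lesions and at 0.342 to 8.97 in eutopic endometrium.

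Marker lists of cell types were read in the same comparison, that of lesions and eutopic endometrium in the mean of both genotypes. Of 7 myeloid markers 7 lay above 0 in lesions against eutopic endometrium, by a median of 1.2, and S100a8 and S100a9 (calprotectin of neutrophils and monocytes) passed, at 4.76 and 4.86. The summed myeloid signal was 64.8 to 310.0 in ERBOE and 44.9 to 171 in PRCre lesions, against 27.7 to 65.2 in ERBOE and 25 to 67.6 in PRCre eutopic endometrium. Of 9 lymphocyte markers 6 lay above 0, by a median of 0.15, and the B cell marker Ms4a1 was among those that passed, above background on 6 of 6 lesion arrays and 0 of 6 eutopic arrays. The summed lymphocyte signal was 6.89 to 8.86 in ERBOE and 9.12 to 33.5 in PRCre lesions, against 7.34 to 16.2 in ERBOE and 9.24 to 12.8 in PRCre eutopic endometrium. Of 5 adipocyte markers 4 lay above 0, by a median of 6.62, and Adipoq, Plin1, Fabp4 and Cidec passed, at 6.81, 5.41, 6.76 and 6.62. The platelet marker Pf4 passed at 1.61, while Gp1ba, a defining marker of that list, was above background on 0 of 18 arrays. Gp9 was above background on 0 lesion arrays, 2 ERBOE eutopic arrays and 1 PRCre eutopic array. Ppbp was so on 3 ERBOE and 1 PRCre lesion arrays and on 2 ERBOE and 0 PRCre eutopic arrays. Only 1 of the 4 genes, Pf4, was above background on all 18 arrays. The summed signal of this list was 16.9 to 24.9 in ERBOE and 6.94 to 13.0 in PRCre lesions, against 4.11 to 4.56 in ERBOE and 3.68 to 5.47 in PRCre eutopic endometrium. Of 7 epithelial markers 0 lay above 0, by a median of -0.25, and 0 passed. Of 5 endothelial markers 5 lay above 0, by a median of 0.51, and of 5 mast cell markers 5, by a median of 0.37. Of 5 smooth muscle markers 0 did, by a median of -0.53, and 0 passed in each of these lists. The endometrial stroma markers, of which 6 of 6 were above background on all arrays, had a median of -0.34. The part of these cells in the adhesion gene results was not tested, and in bulk RNA more cells of a type and more RNA per cell cannot be told apart.

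Of the wider pathway, 18 of 22 further matricellular and adhesive glycoproteins were tested and 2 rose in lesions, Thbs4 by 3.31 ± 0.64 (adjusted p = 0.0201) and Comp by 1.60 ± 0.30 (adjusted p = 0.0153, limma), both pentameric thrombospondins. Among 28 integrin activation and focal adhesion genes, 21 basement membrane partners, 8 other integrin and laminin chains tested and 12 integrin ligands and hyaluronan enzymes tested, 0 passed, with medians of 0.01, 0.02, -0.05 and 0.25.

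The same comparison was made within each genotype. In ERBOE, 0 of 40 genes passed (limma), where 0.618% of all features were called (0.482% higher, 0.136% lower). At an unadjusted p under 0.05, 12 were higher and 0 lower, against 4.83% and 5.65% of features and 10.5% in either direction. The smallest p were those of Lama1 at 3.15 ± 0.73 (adjusted p = 0.0763), Tnc at 2.50 ± 0.65 (adjusted p = 0.120) and Itga8 at 2.53 ± 0.71 (adjusted p = 0.156, limma). In 9 of 40 genes the ERBOE lesion arrays all lay above the eutopic arrays, against 7.02% of all features, and in 0 below them, against 13.2% (20.2% in either direction). The 9 were Itgax, Itgav, Itga3, Itgb2, Cd44, Postn, Spp1, Tnc and Lama1. In PRCre, 0 of 40 passed (limma), where 0.00301% of features were called. At an unadjusted p under 0.05, 6 were higher and 0 lower, against 2.54% and 1.43% of features and 3.97% in either direction. Of the 40, 23 lay above 0, against 41.7% of features. Its smallest p were those of Tnc at 2.70 ± 0.65 (adjusted p = 0.399; at least 3.51-fold higher, since the eutopic group was below background, but 0.96 on the log2 scale with normexp), Itgb2 at 1.72 ± 0.48 (adjusted p = 0.617) and Itga4 at 1.42 ± 0.44 (adjusted p = 0.816, limma). Itga4 read 0.50, 2.00 and -0.44 in PRCre lesions, against -0.86, -0.39 and -0.94 in PRCre eutopic endometrium, and without lesion array 2 its difference was 0.76. The PRCre groups did not overlap for 3 genes, Cd44, Fn1 and Tnc, all higher in lesions, against 2.9% of features higher, 4.02% lower and 6.91% in either direction.

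Arrays lay on 3 slides, and slide 1 held no eutopic array and slide 3 no PRCre lesion array. With 1 or 2 arrays a side, the lesion minus eutopic differences within slide 2 were 1.34 for Tnc, 1.47 for Itgb2 and 2.32 for Spp1 in ERBOE and 3.26, 2.71 and 3.20 for the same genes in PRCre, where the value of Tnc rests on a eutopic array that was not above background. Within slide 3 those in ERBOE were 3.60, 2.25 and 3.51. With slide as a block over all arrays Itgb2 still passed at 1.93 ± 0.34 (adjusted p = 0.0176), while Spp1 at 3.17 ± 0.84 (adjusted p = 0.102, limma), like Tnc, did not. Over the 9 planned settings that gave Tnc a value its adjusted p ran from 0.00175 to 0.0599, and on leaving out 1 array from 0.00296 to 0.0368.

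ERBOE was then set against PRCre in lesions, which compares the genotypes of the implanted tissue. None of the 40 genes passed (0 of 33179 features called, limma), and 4 were higher and 0 lower at an unadjusted p under 0.05, against 2.11% and 2.31% of features and 4.42% in either direction. Of the 40, 27 lay above 0, against 43.9% of features. The smallest p were those of Tnc at 1.94 ± 0.65, with ERBOE arrays at -0.21 to -1.66 and PRCre arrays at -2.79 to -3.26, of Itga8 at 1.91 ± 0.71 and of Itga3 at 0.73 ± 0.30 (adjusted p = 0.994 for each, limma). Itga3, a chain of the epithelial laminin receptor, read 0.52, 0.23 and 0.30 in ERBOE and -0.01, -0.96 and -0.16 in PRCre lesions. Its other probe gave a difference of 0.19, the mean of its probes 0.46, and the brightest probe 0.43 without PRCre lesion array 2. Groups did not overlap for 4 genes, Itgav, Lamc1, Itga3 and Tnc, all higher in ERBOE, against 5.33% of features higher, 6.11% lower and 11.4% in either direction. Without PRCre lesion array 2 the median over the 40 was 0.27, against 0.24 with it, and the differences of Itga4, Itgal, Itgax, Itgb2 and Itgb7 were 0.14, 0.17, 0.11, 0.54 and 0.21, against -0.52, -0.57, -0.27, -0.01 and -0.54 with it. Of 9 lymphocyte markers 0 lay above 0 between the genotypes in lesions, by a median of -1.41, with PRCre lesion array 2 included. The direction of single markers can depend on that array. Cd3g read -0.56, -0.79 and -0.65 in ERBOE and -1.12, 2.18 and -2.08 in PRCre lesions. The summed lymphocyte signal was 6.89, 8.86 and 7.42 in ERBOE and 9.12, 33.5 and 13.9 in PRCre lesions. Of 7 myeloid markers 4 did, by a median of 0.30, and of 7 epithelial markers 4, by a median of 0.18. In these lists 0 passed. The summed adipocyte signal was 161 to 207 in ERBOE and 24.3 to 163 in PRCre lesions. The part of these cells in the genotype differences was not tested.

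In eutopic endometrium 0 of 40 genes passed between ERBOE and PRCre (0 of 33179 features, limma), and 2 were higher and 1 lower at an unadjusted p under 0.05, against 1.76% and 1.18%. These were Tnc at 2.14 ± 0.65, or at least 2.38-fold higher in ERBOE because PRCre was below background (0.63 on the log2 scale with normexp), Lamc3 at 2.92 ± 1.12 and Lama3 at -1.79 ± 0.57 (adjusted p = 1.00 for each, limma). Lamc3, a gamma chain found outside most basement membranes, read -1.70, 0.93 and 0.32 in ERBOE and -2.14, -3.59 and -3.48 in PRCre eutopic endometrium. Lama3, the alpha chain of the laminin that anchors epithelia, read -1.14, -0.48 and -1.32 in ERBOE and 0.25, 1.92 and 0.27 in PRCre eutopic endometrium. Groups did not overlap for Lamc3, Cd44 and Tnc, higher in ERBOE, and for Itga5, Lama3 and Itgb5, lower in ERBOE, against 5.11% and 4.03% of features and 9.13% in either direction. Of the 40, 18 lay above 0, against 49.2% of features.

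**Figure D5:**
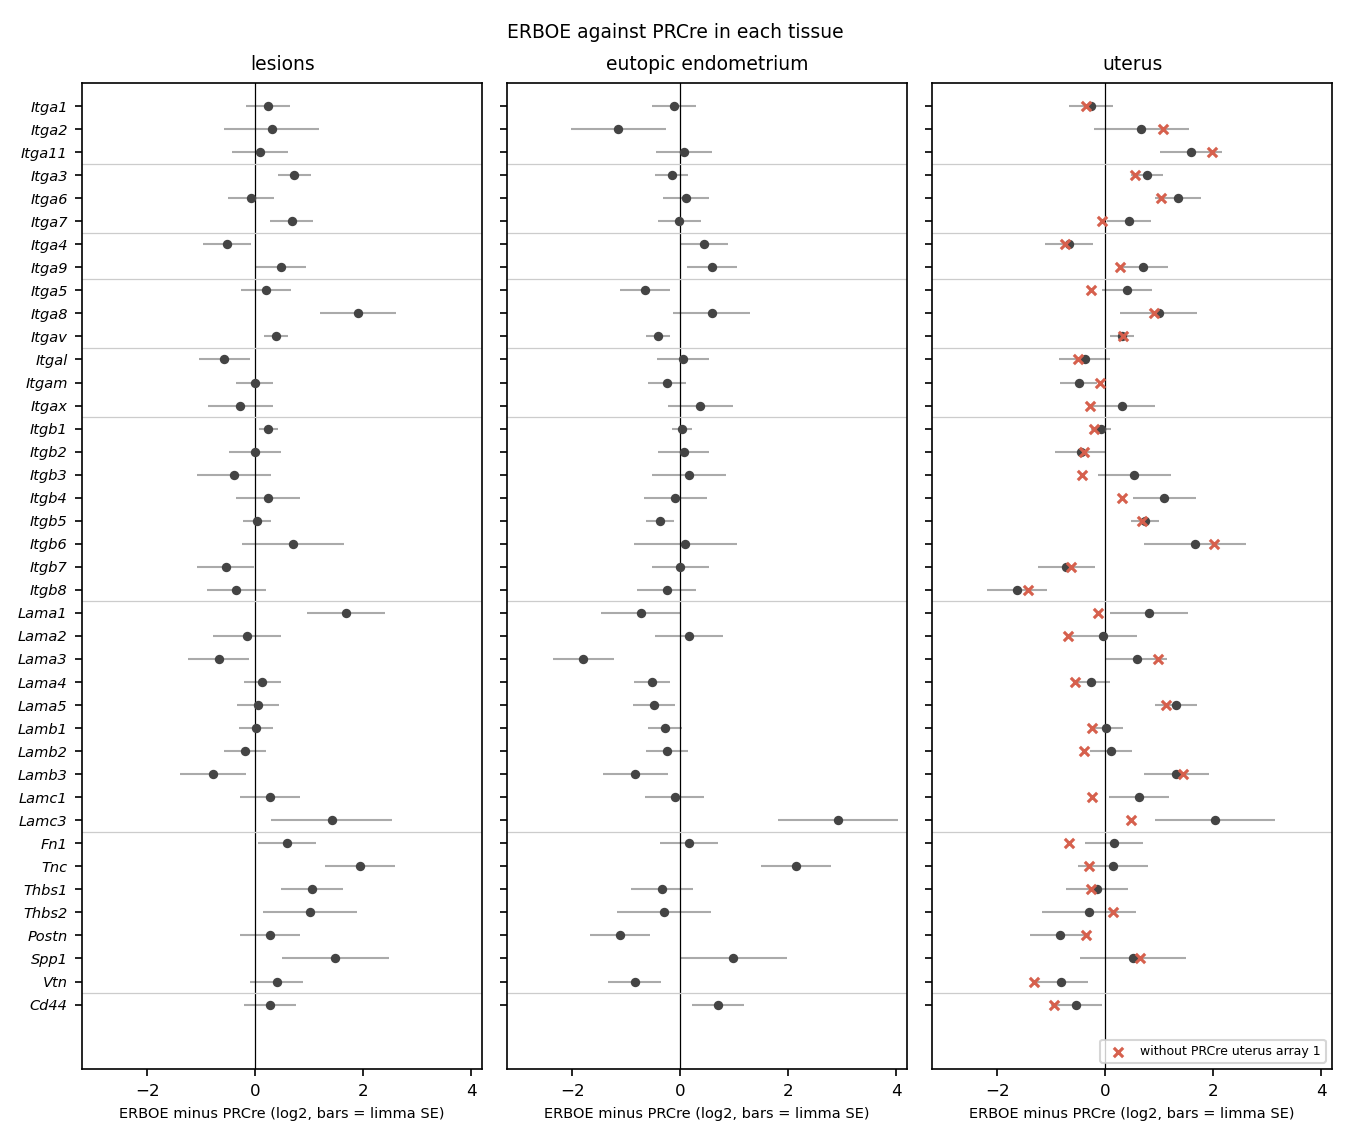
ERBOE minus PRCre difference (log2, points with limma SE bars) of the 40 genes in lesions, eutopic endometrium and uterus, in the row order of the heat map of levels by array. Crosses in the uterus panel leave out PRCre uterus array 1, and the median is -0.22 without that array, against 0.32 with it. No gene passed in any panel.

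In the uterus, 0 of 40 genes passed between ERBOE and PRCre (0 of 33179 features, limma), and 6 were higher and 1 lower at an unadjusted p under 0.05, against 4.14% and 5.79% of features and 9.93% in either direction. The SE and p here come from the fit that does not pair same-numbered pools of the genotypes. Lama5, Itga6 and Itgb8 had the smallest p. Lama5, the alpha chain of most adult epithelial basement membranes, read 4.63, 4.21 and 3.81 in ERBOE and 2.53, 2.97 and 3.23 in PRCre uterus, a difference of 1.31 ± 0.39 (adjusted p = 0.374, limma). Itga6, the laminin receptor chain of hemidesmosomes, read 5.19, 5.35 and 4.63 in ERBOE and 3.08, 3.90 and 4.15 in PRCre uterus, a difference of 1.35 ± 0.42 (adjusted p = 0.390, limma). Neither gene overlapped between the groups. Itgb8, a TGF-beta-activating chain, read -3.17, -4.46 and -4.04 in ERBOE and -1.87, -2.33 and -2.58 in PRCre uterus, a difference of -1.63 ± 0.55 (adjusted p = 0.394, limma), or -0.89 with normexp.

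Without PRCre uterus array 1 these differences were 1.12, 1.03 and -1.43, and 0 passed. For other genes the direction depended on that array. The median over the 40 genes was 0.32 with it and -0.22 without it, and the number above 0 was 25 with it, against 40.3% of all features, and 16 without it. Lama1, Lamc1 and Fn1 changed sign, with 0.81, 0.63 and 0.16 with the array and -0.13, -0.25 and -0.67 without it, and Lamc3 moved to 0.47, against 2.03 with it. At an unadjusted p under 0.05, 4 genes were higher and 2 lower without it, in a fit whose share of all features is not given here. In the uterus 9 genes were higher and 4 lower in ERBOE without overlap, against 6.24% and 8.77% of features, and 10 and 13 without that array, where 2 PRCre arrays make such a gap easier to reach. The 9 were Lama5, Itga11, Itgav, Itga6, Itgb5, Itga8, Itgb6, Itga3 and Itga9, and the 4 were Itgb7, Itgb8, Itga4 and Itgb2. Itga11 was measured on 2 of 3 PRCre uterus arrays because its spot was called an outlier on array 3. Of 7 epithelial markers 6 lay above 0 in this comparison, by a median of 1.60, with a summed signal of 250 to 485 in ERBOE and 121 to 185 in PRCre uterus, and their part in the differences of Lama5 and Itga6 was not tested. The sum of 185 is that of PRCre uterus array 1, and PRCre uterus arrays 2 and 3 gave 123 and 121. Of 9 lymphocyte markers 1 lay above 0, by a median of -0.50, with a summed signal of 7.66 to 10.5 in ERBOE and 11.8 to 15.5 in PRCre uterus, and their part in the lower Itga4, Itgb2 and Itgb7 levels was not tested.

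Eutopic endometrium against uterus compares mice with an implant and mice without surgery of the same genotype. The titles also name different tissues, endometrium and uterus, so surgery and tissue cannot be told apart here. None of the 40 genes passed in ERBOE, in PRCre or in the mean of both (0 of 33179 features in each, limma). At an unadjusted p under 0.05, 0 were higher and 1 lower in ERBOE, against 1.89% and 1.4% of features, 6 higher and 0 lower in PRCre, against 2.55% and 4.13%, and 0 either way in the mean. In ERBOE the smallest p were those of Itga6 at -1.08 ± 0.42, Lama5 at -0.74 ± 0.39 and Itgb8 at 0.92 ± 0.55, or 0.14 with normexp (adjusted p = 1.00 for each without normexp, limma). Itga6 read 3.87, 3.75 and 4.32 in ERBOE eutopic endometrium, below all ERBOE uterus arrays. In PRCre they were those of Itgb5 at 0.76 ± 0.26, Lama3 at 1.63 ± 0.57 and Lama5 at 1.05 ± 0.39 (adjusted p = 0.738 for each, limma). Itgb5, a vitronectin receptor chain, read 4.01, 4.01 and 4.10 in PRCre eutopic endometrium, against 3.17, 3.48 and 3.17 in PRCre uterus, and its groups did not overlap. Without PRCre uterus array 1 the PRCre differences were 0.71, 2.03 and 0.86, the median over the 40 was -0.08, against 0.34 with it, and 3 genes were higher and 3 lower at an unadjusted p under 0.05. In the mean of both genotypes the smallest p were those of Lama1 at 1.04 ± 0.52, Itgam at -0.44 ± 0.24 and Itga11 at 0.64 ± 0.39 (adjusted p = 0.985 for each, limma), and without that array they were 0.56, -0.24 and 0.84, where Itga11 is left with 1 PRCre uterus array. At an unadjusted p under 0.05, 0 genes were then higher and 1 lower.

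The genotype difference was tested for change between tissues, which asks whether that difference is larger in one tissue than in another. None of the 40 genes passed in any of these 3 tests (0 of 33179 features in each, limma). Between lesions and eutopic endometrium 2 had an unadjusted p under 0.05, Itgav at 0.80 ± 0.31 and Lama1 at 2.42 ± 1.03, against 1.63% of features. Between lesions and uterus 3 did, Lamb3 at -2.10 ± 0.86, Itga6 at -1.43 ± 0.60 and Lama5 at -1.26 ± 0.55, against 6.75%. Without PRCre uterus array 1 these were -2.22, -1.11 and -1.07, with 4 genes higher and 1 lower at that p. Between eutopic endometrium and uterus 7 did, led by Lama5 at -1.79 ± 0.55, Itgb5 at -1.11 ± 0.37 and Lama3 at -2.37 ± 0.81 (adjusted p = 0.941 for each, limma), against 5.11%. Without PRCre uterus array 1 these were -1.60, -1.06 and -2.77, with 2 genes higher and 5 lower. Of 7 epithelial markers 1 lay above 0 in the test of lesions and uterus, by a median of -1.61, and 0 in that of eutopic endometrium and uterus, by a median of -1.86, and their part in these differences was not tested. Lamb3, the beta chain partner of Lama3, read 0.21, -0.23 and -0.70 in ERBOE and 0.81, -0.17 and 0.98 in PRCre lesions, against 1.44, 0.90 and 0.04 in ERBOE and -0.29, 0.35 and -1.65 in PRCre uterus. These 3 tests share the ERBOE and PRCre arrays of each tissue, so their values are not independent of each other.

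Further probes of the same genes gave a check on the choice of probe. There were 27 such probes past the filter, and in the mean comparison of lesions and eutopic endometrium 25 of 27 had the sign of the brightest probe and 1, that of Tnc, passed. Over the 12 comparisons between 20 and 25 of 27 had the same sign. For Cd44 the other probes gave 1.49 and 0.77 in that comparison, against 1.13 on the brightest, and for Fn1 1.01 and 1.1, against 1.01.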

How the data were processed

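Labelled cRNA (600 ng per array, from 25 ng of total RNA) was hybridised to 1-colour Agilent mouse arrays. The deposited scanner files hold spot intensity that the authors' scanner software background-subtracted, per the file headers. The deposited table of log2 values is centred per probe. Its correlation with the centred scanner values was 0.999995 to 0.999999, its column medians were -0.152 to 0.359, and no source used here states how the authors made it.

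Control spots and outlier spots were dropped, log2 of the processed intensity was reduced by each array's 75th percentile, and spots of a probe were averaged. Probes above background on at least 3 of 18 arrays were kept. Names came from the probes' accessions through RefSeq (GRCm38.p6), which gave 32994 of 56605 probes 1 symbol and the other 23611 none. Where no array of a group was above background, the fold is a bound, from the lowest signal called above background on each array.

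A limma model (limma 3.58.1, R 4.3.3) held the 6 group means over 18 arrays (residual df 12, prior df 2.49), with 2-sided tests and Benjamini-Hochberg adjustment over all 33179 features, 17902 of them with a symbol. Labels do not say that pools of a group came from separate litters or days, and p-values measure the spread between pools. With 3 arrays against 3 an exact permutation test cannot go below 0.1, so none is given for those comparisons. That bound does not hold for the means of both genotypes, such as the 6 lesion arrays against 6 eutopic arrays. No permutation test was run for them either. The method was tested on simulated data. The result for 1 marker gene is not reported here. Members and lists were chosen with earlier results of these data known. The genes described by array are all that passed and otherwise the 3 with the smallest p in a comparison; other per-array values were chosen after their values were seen.

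Same-numbered uterus pools of ERBOE and PRCre share a slide and deviate together (correlations 0.40, 0.31 and 0.45 for numbers 1 to 3), so they count as paired. The main fit did not use this pairing, so the SE, p and counts given for the uterus leave it out. With the replicate block over all arrays the median uterus difference of the 40 genes was 0.32 and 0 passed. PRCre lesion and eutopic pools correlate at 0.35, 0.23 and 0.14 but come from different animals. The mean signal column was not used; the normexp alternative ran on median signal with an offset of 50.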

Additional observations from a re-analysis of the deposited data

How the results depend on the processing

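The 40 genes had 3 calls for lesions against eutopic endometrium in the mean of both genotypes. That count was 10 with array weights and 1 with slide as a block, and 1 to 5 on leaving out 1 array. Without PRCre lesion array 3 it was 5, and without PRCre lesion array 1, PRCre eutopic array 1 or 3, ERBOE lesion array 1 or 3, or ERBOE eutopic array 2 or 3 it was 1. The feature count of 425 was 235 with a filter on all 18 arrays, 1345 with array weights and 215 to 712 on leaving out 1 array. Array weights gave PRCre uterus array 1 a weight of 0.264. In ERBOE alone, 0 gene calls became 2 with normexp background, 5 with array weights and 0 to 1 on leaving out 1 array, and 205 features became 121 with the filter on all arrays, 1284 with array weights and 62 to 262 on leaving out 1 array. In PRCre alone, 1 feature became 0 with the filter on all arrays, 7 with normexp, 8 with trend and robust variance, 29 with array weights and 1 to 50 on leaving out 1 array, and 0 gene calls became at most 1, Itgb2 without PRCre lesion array 3. Between genotypes in lesions, 0 features became 2 with normexp, 1 with the filter on all arrays, 1 with trend and robust variance, 6 with array weights and 0 to 3 on leaving out 1 array. In the uterus 0 became 1 with the filter on all arrays and 0 to 3 on leaving out 1 array, in eutopic endometrium 0 to 1, in PRCre eutopic endometrium against uterus 1 with normexp and 0 to 2, and in the genotype difference of lesions minus that of uterus 0 to 1. With the replicate block 3 genes passed in the mean lesion comparison, Tnc, Itgb2 and Itga8 at 1.87 (adjusted p = 0.0371, limma), while Spp1 at 3.05 did not (adjusted p = 0.0651). A replicate block on the uterus arrays alone called 0 features, and on PRCre lesion and eutopic arrays alone 0 in place of 1, with 0 gene calls in both; it changed no other call. These fits were chosen after seeing the data. Spp1 was also lost with quantile normalization at 3.17 and with no filter at 3.05. The dimmer Itgam probe gave 0.0034 for eutopic endometrium against uterus in the mean of both genotypes, against -0.44, a change of sign at a value near 0. The cause of these changes was not tested. Dim signal limits Tnc, which the filter on all 18 arrays removes. The number of arrays limits the precision.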
